A study of Drosophila melanogaster with 2 samples.

Results

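The cytochrome P450 genes of Drosophila melanogaster were examined for binding of tHMG1, an HMG-box protein also known as CG7045. Protein-coding genes were taken by symbol, as Cyp followed by a digit, in the Ensembl annotation. The pattern matched 85 of the 13968 protein-coding genes on the chromosome arms. RefSeq product names showed that 83 of them encode cytochromes P450 and that the other 2, Cyp1 and Cyp40, encode cyclophilins, which are protein-folding enzymes that share only the abbreviation. The 83 P450 genes are described here. They comprise 23 Cyp6 genes, 22 Cyp4 genes, 9 genes of mitochondrial enzymes and 29 others. A further 6 P450 genes of ecdysone synthesis carry other symbols (phantom, annotated as phtm, dib, sad, shd, spo and spok) and were followed as a separate class.

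The measurements were chromatin immunoprecipitation followed by sequencing (ChIP-seq), which locates the DNA bound by a protein. Chromatin of whole adult males of unstated age was sonicated and precipitated with an antibody against GFP. Every fly came from 1 transgenic line, labelled CG7045-GFP, in which tHMG1 carries GFP at its C-terminus, so the data describe the tagged protein in all tissues of the male at once. The 2 biological replicates, numbered 1 and 3, formed 1 group, and no untagged flies were analysed here, so no contrast between conditions was made.

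Cytochromes P450 are haem enzymes that insert oxygen into small molecules, using electrons passed on by a reductase. In insects the microsomal Cyp6 and Cyp9 families are best known for oxidising insecticides and plant toxins, the Cyp4 family for acting on fatty acids and hydrocarbons, and a small set of enzymes in the endoplasmic reticulum and the mitochondria for making the moulting hormone from cholesterol. Detoxification genes have multiplied by tandem duplication, so that many lie in arrays of close relatives. Much of their expression is in gut, Malpighian tubules and fat body, tissues which a whole-fly sample mixes with all others.

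A peak was placed at a gene where its summit, the position of highest enrichment, lay within 500 bp of any annotated transcription start site (TSS) of that gene. The strictest list held 4574 peaks left after filtering by irreproducible discovery rate (IDR), a measure of how well peaks repeat between replicates. Their signal, the enrichment value that the authors deposited for each peak, ran from 90.3 to 2863.8 with a median of 145.9. The pooled list and the list of each replicate held 30000 peaks apiece and reached far weaker enrichment, down to 18.6 in the pooled list. The signal of a peak in the IDR list is its signal in the pooled data. For a gene, the strongest peak within 500 bp of a TSS was taken in each list separately. The pooled and replicate values of a gene can therefore come from different summits. The lists were not scaled to each other, and read depth is unknown.

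The DNA under the summits is shown for 4 P450 genes with an IDR peak: a pair of X-linked Cyp6 genes, an autosomal Cyp6 gene and the single mitochondrial gene. Each is read 5′ to 3′ on the strand of the P450 gene from the release 6 RefSeq genome, which shares its coordinates with build dm6. The 11 bases centred on the summit are in capitals. The stretch at Cyp6t1 is X:21519344-21519494 on the minus strand, and that at Cyp6v1 is X:20656665-20656815 on the plus strand. The stretch at Cyp6d5 is 3R:14029114-14029227 on the plus strand and stops at the base before the TSS, and that at Cyp12a4 is 3R:19135069-19135157 on the plus strand.
Cyp6t1: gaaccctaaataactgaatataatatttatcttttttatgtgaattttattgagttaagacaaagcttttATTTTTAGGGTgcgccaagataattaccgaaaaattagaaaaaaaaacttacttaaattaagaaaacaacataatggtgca
Cyp6v1: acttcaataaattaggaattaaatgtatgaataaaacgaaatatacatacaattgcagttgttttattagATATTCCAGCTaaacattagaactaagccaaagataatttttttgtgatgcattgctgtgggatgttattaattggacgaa
Cyp6d5: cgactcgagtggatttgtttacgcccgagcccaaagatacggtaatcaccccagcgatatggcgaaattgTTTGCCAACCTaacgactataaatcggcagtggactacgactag
Cyp12a4: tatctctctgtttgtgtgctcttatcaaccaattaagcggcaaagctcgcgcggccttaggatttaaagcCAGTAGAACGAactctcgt

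The sequences at Cyp6t1 and Cyp6v1 are rich in A and T, with a GC content of 24.5% and 27.2%. Those at Cyp12a4 and Cyp6d5 had a GC content of 46.1% and 49.1%. The Cyp6d5 stretch holds TATAAA and, on the opposite strand, AACAAT, the core letters bound by many HMG-box proteins of the SOX group. None of the other 3 stretches holds any of the 6 motifs that were searched.

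An IDR peak lay at 9 of the 83 P450 genes, or 10.8%, where 21.4% of all protein-coding genes had one. In the pooled list 51 P450 genes (61.4%) had a peak, beside 55.8% of all protein-coding genes. In replicate 1 the number was 49 (59%), beside 55.3%, and in replicate 3 it was 47 (56.6%), beside 54%. The share of P450 genes was thus below that of all genes in the IDR list and a little above it once weaker peaks were included. The IDR list holds the 4574 strongest pooled peaks, so this contrast is between strong and weaker peaks. No test was run on these shares, because the genes and the families were chosen with earlier results of the same data known and because neighbouring P450 genes can share a peak.

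The peaks were weak for the list they stood in. Over the 9 genes the median of the strongest IDR signal was 104.0, compared with 166.0 over all protein-coding genes with an IDR peak, and 5 of the 9 lay between 91.8 and 104.0. Over the 51 genes with a pooled peak the median was 43.5, compared with 68.7 over all genes with one. Peaks in both replicate lists were found at 39 P450 genes (47%), close to the 46.9% of all protein-coding genes. No peak in any of the 4 lists was found at 24 P450 genes (28.9%), where 36.7% of all protein-coding genes had none.

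**Figure D1:**
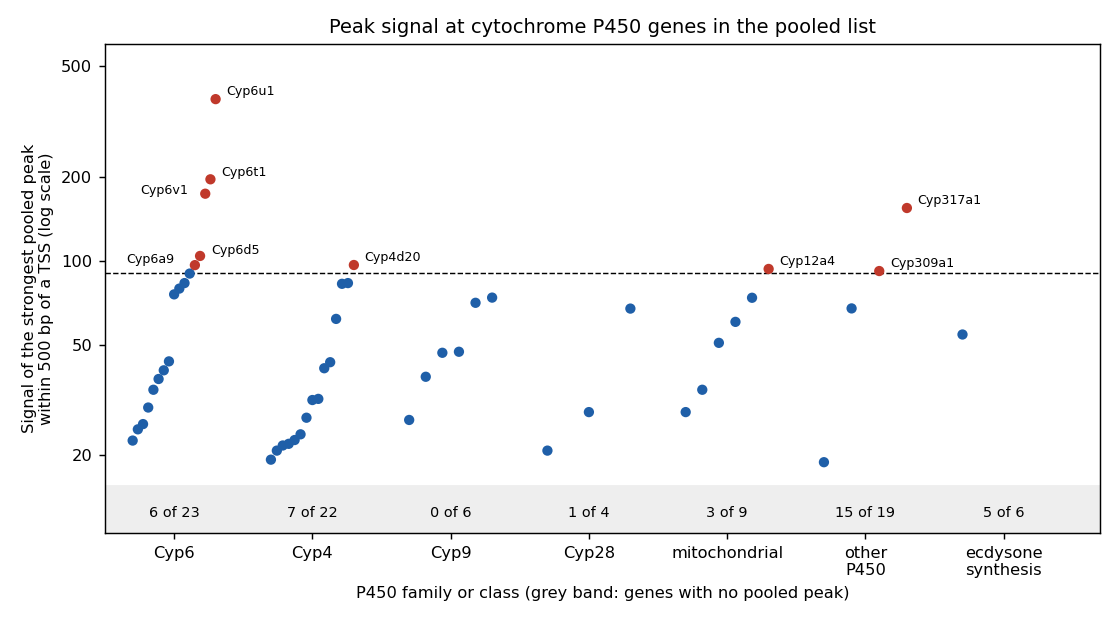
Signal of the strongest pooled peak within 500 bp of a TSS (vertical axis, log scale, the authors' enrichment value) for each P450 gene with such a peak, by family or class; 1 point is 1 gene, red points are genes with an IDR peak, the dashed line is the lowest IDR signal of 90.3, and the grey band gives the number of genes without a pooled peak. Of the 9 red points, 5 are Cyp6 genes, and the class of other P450 is drawn without the 6 Cyp9 and 4 Cyp28 genes, which have columns of their own.

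The Cyp6 family, which includes several of the P450 genes linked to insecticide resistance in flies, held 5 of the 9 genes. An IDR peak lay at 5 of its 23 members (21.7%), which is the background share, and a pooled peak at 17 (73.9%, beside 55.8%). The strongest belonged to Cyp6u1, at 2R 6974997 to 6975275, with a signal of 380.3 in the pooled data, 236.9 in replicate 1 and 139.4 in replicate 3. It ranked 431 of the 4574 peaks and was the only one at a P450 gene among the strongest 1000. Its summit, however, lay in the 5′ UTR of Ufsp1, a protease of the UFM1 modifier, 20 bp from the Ufsp1 TSS and 87 bp upstream of a TSS of Cyp6u1. The peak at the most strongly marked P450 gene was therefore nearer to another gene.

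The next strongest pair was on X. Cyp6t1 had a signal of 196.0, with 113.8 in replicate 1 and 81.9 in replicate 3, at X 21519197 to 21519640, 201 bp upstream of its TSS and inside an intron of lncRNA:CR45082. Cyp6v1 had 2 overlapping IDR peaks. The first, in intergenic DNA 382 bp upstream of the TSS, had a signal of 174.0, with 102.9 in replicate 1 and 69.4 in replicate 3. The second, 175 bp upstream and in an exon of the antisense RNA asRNA:CR45466, had a signal of 100.5. At both genes the P450 TSS was the nearest one, and the next was 598 bp away for Cyp6t1 and 808 bp away for the stronger Cyp6v1 summit. These were the AT-rich sequences shown above.

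Cyp6d5 and Cyp6a9 were close to the lower end of the IDR list. Cyp6d5 had a signal of 104.0, with 44.6 in replicate 1 and 60.0 in replicate 3, at 3R 14028967 to 14029410. The summit lay 39 bp upstream of its TSS, in an intron of rdx, an adaptor of a ubiquitin ligase, whose own TSS was 2868 bp away. Cyp6d5 was not called when replicate 3 was left out. Cyp6a9, a gene studied for its expression in insecticide-resistant strains, had a signal of 96.4, with 57.5 in replicate 1 and 44.4 in replicate 3, 104 bp upstream of its TSS. The same summit lay 642 bp from the TSS of Cyp6a20, a gene with a role in male aggression, which had no IDR or pooled peak within 500 bp and a replicate 1 peak of 14.5.

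Cyp6a22 and Cyp6d4 missed the IDR list by little, and Cyp6a13 and Cyp6w1 by more. Cyp6a22 had a pooled signal of 89.9, with 48.1 in replicate 1 and 40.2 in replicate 3, just under the lowest IDR value of 90.3. Cyp6d4 had 83.1 in the pooled data but 15.8 in replicate 1 and 53.4 in replicate 3, which as a ratio is further from 1 than at any of the 9 genes. Cyp6a13 had 79.4 (40.6 and 31.2). Cyp6w1, with 75.7, had a peak in replicate 3 of 50.3 and none in replicate 1. The 4 P450 genes between 91.8 and 96.5 lay within 10% above the lowest IDR signal. Within 10% below it lay 4 as well, namely Cyp6a22, Cyp6d4, Cyp4p1 and Cyp4p2. The count of 9 therefore rests in part on where that line was drawn.

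Some further Cyp6 genes known from work on resistance had no IDR peak within 500 bp of a TSS. Cyp6g1, which confers resistance to DDT and neonicotinoids when overexpressed, had no pooled peak within 500 bp of its TSS and a replicate 1 peak of 14.5. It did hold an IDR peak in its own intron, at 2R 12186230 to 12186351, whose summit was 604 bp downstream of the TSS. That peak had a signal of 190.3, with 108.4 in replicate 1 and 82.2 in replicate 3, which exceeds 7 of the 9 counted genes. Its neighbour Cyp6g2, which can metabolise insecticides as well, had no peak at its TSS in any list. Cyp6a2 had a pooled signal of 29.7, with 30.8 in replicate 1 and 19.7 in replicate 3, and Cyp6a8 one of 40.4 (21.4 and 14.3), both far below the IDR line.

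The Cyp4 family had many weak peaks and 1 strong enough for the IDR list. An IDR peak lay at 1 of 22 members (4.55%, beside 21.4%) and a pooled peak at 15 (68.2%, beside 55.8%), with a median pooled signal of 31.6 compared with 75.7 for the Cyp6 genes that had one. The 1 gene was Cyp4d20, with a pooled signal of 96.5, a replicate 1 signal of 53.6 and a replicate 3 signal of 39.8. The summit was over 250 bp upstream, in an intron of Svil, a supervillin-like actin-binding protein, and the nearest other TSS, that of CG16762, was 3152 bp away. The Cyp4 count fell to 0 when replicate 1 was left out, with a window of 250 bp and with the stronger 50% of the IDR list. Cyp4p2 with 83.1 (45.4 in replicate 1 and 38.5 in replicate 3) and Cyp4p1 with 82.6 (49.3 and 39.7) came next, and the remaining gene of that array, Cyp4p3, had 61.8.

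Cyp4g1, the oenocyte enzyme that makes cuticular hydrocarbons, had a pooled signal of 31.9, with 14.6 in replicate 1 and 13.5 in replicate 3. Its relative Cyp4g15, which is expressed in the nervous system, had 22.7, with 17.7 in replicate 1 and none in replicate 3. Cyp4e2 had 43.2, with 23.3 and 17.7. All 3 were below 50 and none approached the IDR line.

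Of the 9 mitochondrial members, 1 had an IDR peak (11.1%) and 6 had a pooled one (66.7%), beside 21.4% and 55.8% of all protein-coding genes. The single IDR call was lost, leaving 0, when replicate 3 was left out and with the stronger 50% of the IDR list. The gene was Cyp12a4, known for conferring resistance to lufenuron, at 3R 19134922 to 19135365. Its signal was 93.4, with 48.4 in replicate 1 and 51.8 in replicate 3, and the summit and the TSS were 14 bp apart, the shortest distance of all 10 summits. Its tandem neighbour Cyp12a5 had a separate, weaker peak of 60.3 (37.4 in replicate 1 and 19.2 in replicate 3), and Cyp12b2 had 73.6 (49.8 and 23.9). Cyp12c1 followed with 50.7 (25.5 and 21.5), Cyp12e1 with 34.4 (20.7 and 11.8) and Cyp49a1 with 28.6 (15.1 and none). These 5 genes had a higher value in replicate 1 wherever both were listed, unlike Cyp12a4.

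The remaining mitochondrial members had no peak in any list. Cyp301a1, which acts in cuticle formation, was one of them. The others were Cyp12d1-p and Cyp12d1-d, a pair of nearly identical insecticide-inducible genes. Every one of the 952 stretches of 50 bases in the 500 bp on either side of each of their TSSs occurs again elsewhere on the arms, whereas 75 of the 83 P450 genes have no such repeat. How reads with several matches were treated is not given in the sources used here, so a missing peak at this pair cannot be told apart from reads that could not be placed.

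The 6 P450 genes of ecdysone synthesis, also called the Halloween genes, had no IDR peak, and 1 had a pooled peak (16.7%, beside 55.8%). That gene was shd, whose mitochondrial product carries out the last hydroxylation to the active hormone. Its pooled signal was 54.5, with 17.0 in replicate 1 and 31.9 in replicate 3, and the summit lay 347 bp upstream of the TSS. The mitochondrial hydroxylase gene dib had a peak in replicate 1 alone, of 11.5, and spo, which acts earlier in the pathway, in replicate 3 alone, of 13.0. Phantom, sad and spok had none. The nearest IDR summit was 5403 bp from sad, 8720 bp from spo, 8818 bp from dib, 12576 bp from shd, 38609 bp from phantom and 891472 bp from spok.

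Cyp18a1, which inactivates the same hormone and lies beside phantom on X, had no peak in any list, and its nearest IDR summit was 45587 bp away. Together the hormone genes therefore had at most weak enrichment. With 6 genes, and with 21.4% of genes bound, the absence of IDR peaks was not tested. Other genes of the pathway were not all without peaks. Of 6 further ecdysteroid synthesis genes (nvd, sro, Npc1a, Start1, ouib and mld) 1 had an IDR peak and 4 a pooled one. These shares of 16.7% and 66.7%, beside 21.4% and 55.8% of all protein-coding genes, rest on too few genes to set them apart. The one was Npc1a, a cholesterol transporter, with a signal of 92.1, with 40.1 in replicate 1 and 55.3 in replicate 3, and the TSS of Prosalpha6, a proteasome subunit, 141 bp away.

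**Figure D2:**
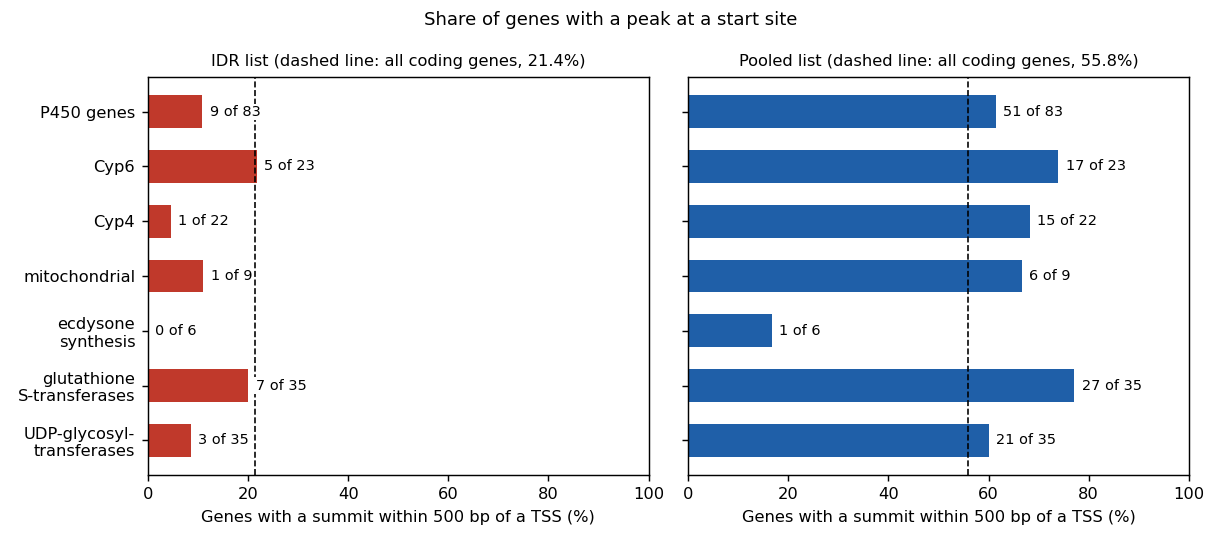
Percentage of genes with a summit within 500 bp of a TSS (horizontal axis) in the IDR list on the left and the pooled list on the right, for the P450 genes, 4 of their classes and 2 other families of detoxification enzymes; dashed lines mark all protein-coding genes. The P450 bar is at 10.8% on the left and 61.4% on the right, and the ecdysone synthesis genes are the lowest of the P450 classes in both.

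Among the others, 2 of 29 had an IDR peak (6.9%, beside 21.4%) and 13 a pooled one (44.8%, beside 55.8%). Cyp317a1 had the fourth strongest signal of all P450 genes, 154.6, with 82.6 in replicate 1 and 69.2 in replicate 3. Its summit lay in an intron of the gene, 109 bp upstream of a second TSS, and the nearest TSS of another gene was 4733 bp away. Cyp309a1 had the weakest IDR signal, 91.8, with 56.8 and 40.8, and its summit was 148 bp upstream of its TSS in the 3′ UTR of the preceding gene Cyp309a2. It was not called when replicate 1 was left out. Cyp309a2 itself, whose TSS was 8059 bp away, had no peak at its start.

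None of the 6 Cyp9 genes in this class had an IDR peak within 500 bp, beside 21.4% of all protein-coding genes. All 6 had a peak in the pooled list (beside 55.8%) and in both replicate lists (beside 46.9%). Their pooled signals ran from 26.8 at Cyp9b2 (19.0 in replicate 1 and 28.3 in replicate 3) to 73.7 at Cyp9f2. The 73.7 summit was 150 bp from the TSS of CG5167 and 354 bp from that of Cyp9f2, which had a weaker summit of 59.8 nearest to its own TSS. The pooled summit of 70.6 at Cyp9h1 was likewise nearer to another gene, 38 bp from the TSS of Or49b and 69 bp from that of Cyp9h1. Both Cyp9f genes had an IDR summit just outside the window. That of Cyp9f3 was in an intron 647 bp downstream of its TSS, with a signal of 143.8 (79.6 and 65.9). The one near Cyp9f2 was 863 bp upstream and in a coding exon of CG5167, whose TSS was 359 bp away. Its signal of 109.4 came with 16.6 in replicate 1 and 96.3 in replicate 3, the least even of the IDR summits named here.

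Of the 4 Cyp28 genes 3 had a pooled peak (75%, beside 55.8% of all protein-coding genes). Cyp28d1, which takes part in nicotine metabolism, had 28.6, with 17.8 in replicate 1 and 12.2 in replicate 3. Cyp303a1, needed for sensory bristle development, had a peak of 13.0 in replicate 3 alone. Cyp305a1 had none, and the nearest IDR summit, with a signal of 97.4, was 2307 bp away in an intron of the clock gene cyc. P450 enzymes are also classed into clans, which were counted here without the ecdysone synthesis genes under other symbols. An IDR peak lay at 7 of 38 genes of the CYP3 clan (18.4%), 1 of 32 of the CYP4 clan (3.12%) and 0 of 4 of the CYP2 clan. These 4 CYP2 genes had no pooled peak either. Phantom, spo and spok, which belong to the CYP2 clan as well, are not among them. Over all protein-coding genes 21.4% had an IDR peak and 55.8% a pooled one.

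**Figure D3:**
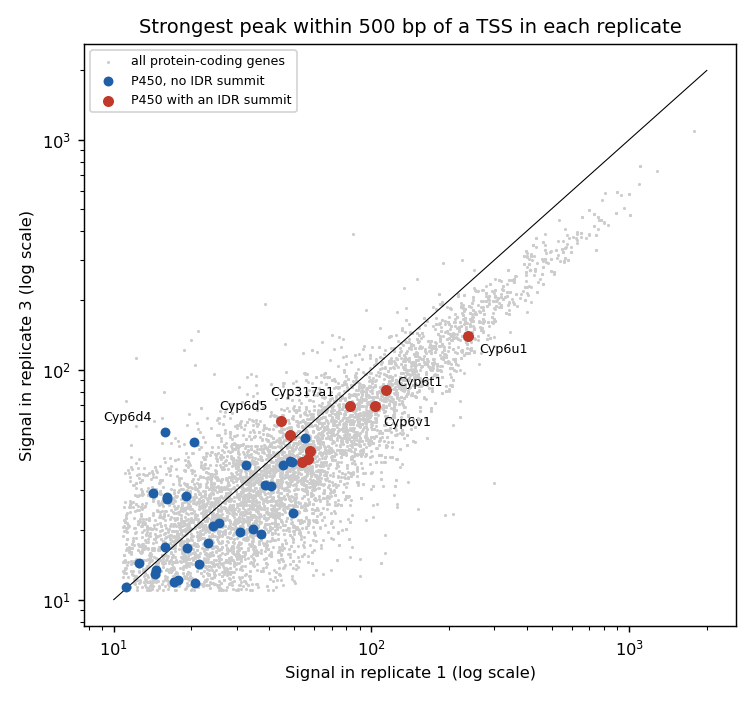
Signal of the strongest peak within 500 bp of a TSS in replicate 1 (horizontal axis) and replicate 3 (vertical axis), both on log scales, for every protein-coding gene with a peak in both lists (grey), P450 genes without an IDR peak (blue) and the 9 with one (red); the line marks equal signals. Red points lie within the grey cloud, 7 of 9 below the line.

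Among the 9 genes Cyp6u1, Cyp6t1, Cyp6v1 and Cyp317a1 were the highest in each replicate, in that order. The order of the rest differed. Cyp6d5 was the lowest of the 9 in replicate 1 (44.6) but came directly after Cyp317a1 in replicate 3 (60.0). All 9 had a peak in both replicate lists, as did 2978 of the 2996 protein-coding genes with an IDR peak. The signal in replicate 1 divided by that in replicate 3 ranged from 0.74 to 1.7 with a median of 1.35, and replicate 1 was higher in 7 of 9. Over the 2978 protein-coding genes with an IDR peak and a peak in both replicate lists, the median was 1.45, with a range of 0.11 to 9.31. Because the replicate lists were not scaled to each other, a ratio above 1 is not a difference in binding. Cyp6d5 and Cyp12a4, the exceptions, had a lower rank in replicate 1 than in replicate 3, but so did Cyp317a1 (rank 2428 and rank 2012).

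All 9 genes had their strongest summit upstream of the TSS, at a median distance of 109 bp, whereas 85.3% of all protein-coding genes with an IDR peak had it upstream, at a median distance of 145 bp. In the pooled list it was upstream for 40 of 51 P450 genes (78.4%) and for 74.4% of all genes with a pooled peak. Of the 10 IDR summits, 9 were nearest to a P450 TSS. The exception was that at Cyp6u1. Of the 65 pooled summits at P450 genes, 60 were nearest to a P450 TSS. Counted by gene, 8 of the 9 with an IDR peak (88.9%) had a summit nearest to their own TSS. Among all protein-coding genes with an IDR peak 74.5% did. In the pooled list the numbers were 49 of 51 P450 genes (96.1%) and 85.3% of all.

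**Figure D4:**
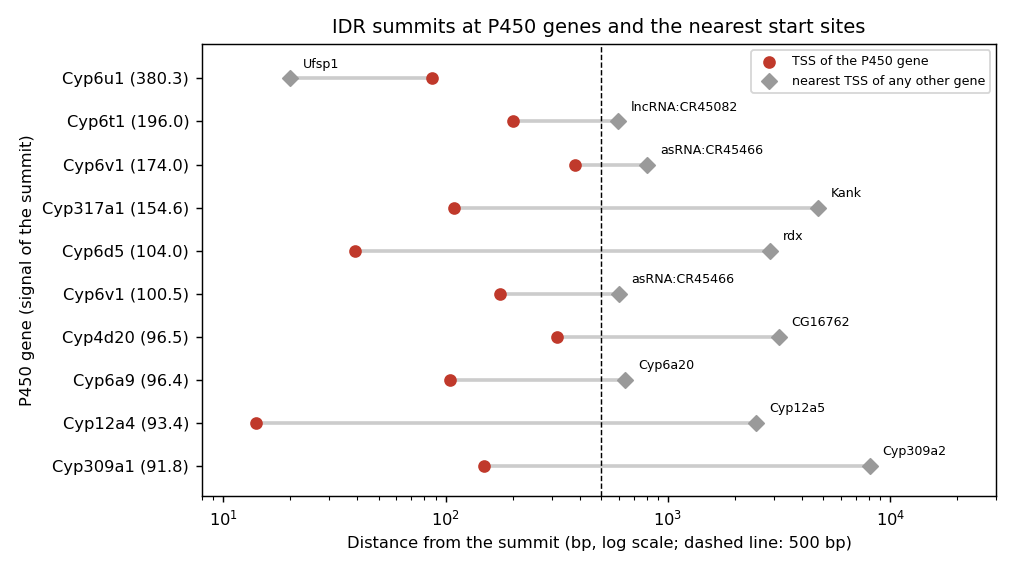
Distance in bp, on a log scale, from each of the 10 IDR summits at P450 genes to the P450 TSS (red circle) and to the nearest TSS of any other gene (grey diamond), with the signal of the summit after the gene symbol; the dashed line marks 500 bp. The grey diamond is left of the red circle only for Cyp6u1, whose summit was 20 bp from the Ufsp1 TSS.

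Few P450 genes shared a start region with another gene. The TSS of another gene lay within 500 bp for 11 of 83 P450 genes (13.3%), compared with 34.4% of all protein-coding genes. This spacing moves with the count of peaks. Among protein-coding genes with such a neighbour 37.6% had an IDR peak, and among those without one 13% did. For P450 genes the numbers were 2 of 11 (18.2%) and 7 of 72 (9.72%). Where no other TSS was near, the P450 share was thus closer to that of all genes (9.72% and 13%) than in the whole comparison (10.8% and 21.4%), and the part of gene spacing in the lower share was not tested. The median distance to the nearest IDR summit was 10084 bp for P450 genes and 6729 bp for all protein-coding genes.

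Tandem arrays were defined as P450 genes whose bodies lay at most 10 kb apart, counting the ecdysone synthesis genes. There were 17 arrays, of which 1 had 9 genes, 6 had 3 and 10 had 2. They held 46 of the 83 genes, of which 4 had an IDR peak (8.7%) and 26 a pooled one (56.5%). Of all protein-coding genes 21.4% and 55.8% had one. Of the 37 genes outside arrays 5 had an IDR peak (13.5%) and 25 a pooled one (67.6%). IDR peaks at a start were confined to 3 arrays: that of Cyp12a5 and Cyp12a4, that of Cyp309a1 and Cyp309a2, and the 9-gene array.

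The 9-gene array, at 2R 14871366 to 14903095, holds Cyp6a22, Cyp6a17, Cyp6a23, Cyp6a19, Cyp6a9, Cyp6a20, Cyp6a21, Cyp6a8 and Cyp317a1 in 31.7 kb. The pooled list placed 9 summits in it, 2 of them in the IDR list, at Cyp6a9 and Cyp317a1. A pooled peak lay within 500 bp of a TSS at 6 of the 9 genes. Close relatives a few kb apart differed in this window: Cyp6a9 had 96.4, Cyp6a8 40.4, Cyp6a21 34.4 and Cyp6a23 22.6, and Cyp6a17, Cyp6a19 and Cyp6a20 had none. For Cyp6a17 the absence depends on the edge of the window. A pooled summit at 2R 14873427 lay just outside it, upstream of the Cyp6a17 TSS at 14873953. Its signal of 48.9 exceeded those at Cyp6a8, Cyp6a21 and Cyp6a23. Cyp6a17 also had a replicate 1 peak of 28.9 within 500 bp. All 3 genes of the Cyp4p array had a pooled peak within 500 bp. No pooled summit lay in the array of Cyp313a5, Cyp313a2 and Cyp313a3.

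**Figure D5:**
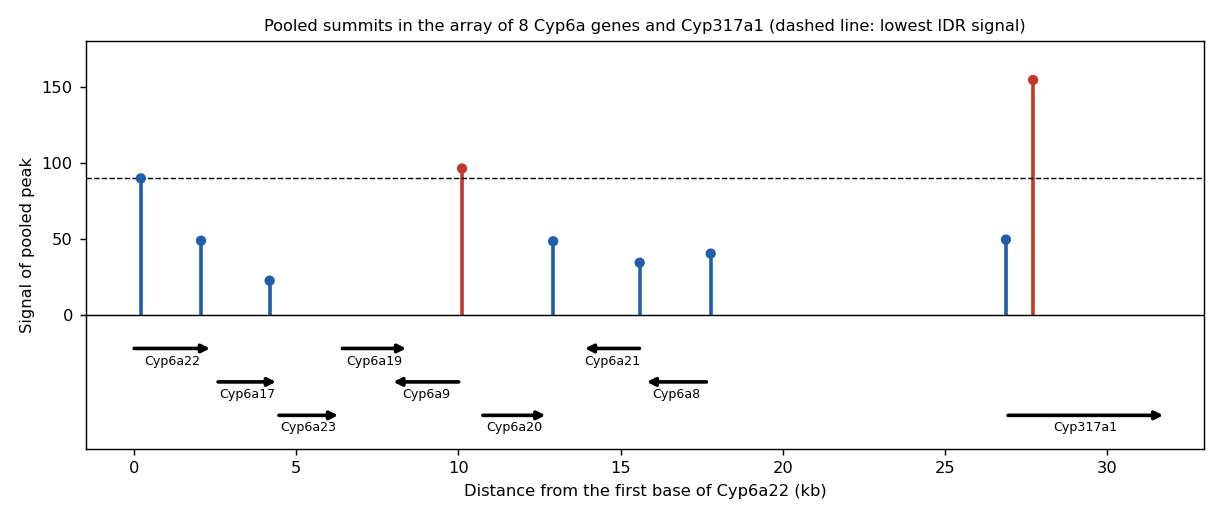
Signal of each pooled summit (vertical axis) in the array of 8 Cyp6a genes and Cyp317a1, by distance in kb from the first base of Cyp6a22 (horizontal axis), with the genes drawn as arrows in the direction of transcription and the lowest IDR signal of 90.3 as a dashed line. The 2 red summits, 96.4 at Cyp6a9 and 154.6 at Cyp317a1, are in the IDR list, and the summit at Cyp6a22 with 89.9 is just under the line.

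P450 genes are unevenly spread over the genome, with 34 of 83 on arm 2R, 16 on 3R, 14 on X, 13 on 2L and 6 on 3L. The 2 of 14 genes on X with an IDR peak (14.3%) were near the share of all X-linked protein-coding genes (14%). On the autosomes the share was 7 of 69 (10.1%), beside 22.9% of all autosomal protein-coding genes. A pooled peak lay at 11 of the X-linked P450 genes (78.6%), most of them weak, with a median signal of 23.8. Among all X-linked protein-coding genes 54.8% had one, with a median of 51.8.

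Promoter sequence was searched in a window from 250 bp before to 50 bp after the TSS, on both strands. Each of the 83 genes contributed 1 promoter, and the window need not hold the summit. The summit at Cyp4d20 and the stronger one at Cyp6v1 lay more than 250 bp upstream. That of Cyp317a1 was near a second TSS inside the gene, whereas the promoter searched was the one at the gene start. The counts for the 9 genes therefore describe their promoters and not the sequence under their peaks. TATAAA, the core of the TATA box, was in 43 of the 83 P450 promoters (51.8%), 5 of the 9 with an IDR peak and 45.8% of all protein-coding promoters. AACAAT was in 28 (33.7%), 5 of the 9 and 32.1% of all. GAGAGAG, a run bound by GAGA factor, was in 5 P450 promoters (6.02%) and 5.86% of all. Of those 5, 3 were at genes with an IDR peak, namely Cyp6u1, Cyp6a9 and Cyp6v1. How many of all GAGAGAG promoters had an IDR peak was not counted, so no link between motif and peak can be read from these 3.

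TATCGATA, bound by the boundary and promoter factor DREF, was in 2 P450 promoters (2.41%), 1 of the 9, that of Cyp6u1, and 9.36% of all. TGACNNNGC, the letters shared by sites of the antioxidant response factor encoded by cnc, was in 3 (3.61%), none of the 9, and 8.62% of all. CACACACA was in 3 (3.61%), none of the 9, and 4.02% of all. None of the 6 motifs contains another. The median GC content of the P450 promoters was 38.0%, and that of the 9 was 37.0%. A match describes the letters in the window and not a bound site.

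Genes that work with P450 enzymes were examined in the same way. Of the 6 redox partners 2 had an IDR peak and 4 a pooled one (33.3% and 66.7%, beside 21.4% and 55.8% of all protein-coding genes), numbers too small to set them apart. Cpr, the reductase that supplies electrons to every microsomal P450, had a signal of 112.5, with 79.1 in replicate 1 and 50.4 in replicate 3, 43 bp upstream of its TSS. Cyt-b5, an alternative electron donor, had 345.6 (217.5 and 125.9), but its summit was slightly nearer to lncRNA:CR44209 (189 bp) than to Cyt-b5 (198 bp). Of the partners of the mitochondrial enzymes, Fdx1 had a pooled peak of 53.1, and dare and Fdx2 had peaks in replicate 1 alone, of 12.8 and 24.9.

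Of 6 regulators of the xenobiotic response 2 had an IDR peak and 5 a pooled one (33.3% and 83.3%, beside the same 21.4% and 55.8%), which is again too few genes to set them apart. Hr96, a nuclear receptor that responds to toxins, had a signal of 363.3, with 244.3 in replicate 1 and 121.6 in replicate 3, 124 bp upstream of its TSS and nearer, at 94 bp, to that of EMC6. The gene cnc, whose product activates detoxification genes, had 162.5 (97.9 and 70.9), 322 bp downstream of a TSS. Both signals are above those of at least 6 of the 9 P450 genes. Keap1, the inhibitor of the cnc product, had a pooled signal of 68.4, with 87.3 in replicate 1 and 47.6 in replicate 3.

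The other families of detoxification enzymes were measured in the same way. Of the 35 glutathione S-transferase genes, whose enzymes conjugate glutathione to toxins, 7 had an IDR peak (20%) and 27 a pooled one (77.1%). The strongest was GstE13 with 834.9 (525.9 in replicate 1 and 306.4 in replicate 3), more than any P450 gene. Of the 35 UDP-glycosyltransferase genes, whose enzymes attach sugars, 3 had an IDR peak (8.57%) and 21 a pooled one (60%). Their 3 signals, 101.2 at Ugt301D1, 98.0 at Ugt37D1 and 94.1 at Ugt303B3, fell in the range of the weaker P450 peaks. The P450 share of 10.8% lay between these families, and the differences were not tested. Over all protein-coding genes 21.4% had an IDR peak and 55.8% a pooled one. The 20% of the glutathione S-transferase genes was near the first of these.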

How the data were processed

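Both replicates were whole adult males of 1 transgenic line. The authors deposited, per the labels, narrowPeak lists for builds dm6 and dm3. The 4 dm6 lists were used (each replicate, pooled, IDR), and the dm3 lists were not used. The value used is the signal of each peak as the authors deposited it. The 4574 IDR peaks match the top 4574 pooled peaks by signal, which makes them peaks of pooled replicates. The sources used here do not give the aligner, the caller, the IDR threshold or the use of the control named in the labels. No counts were used, so depth and counting error are unknown.

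Summits (start plus offset) were matched to every TSS of Ensembl release 115 (dm6 coordinates), with Python 3.11.15, numpy 2.4.6 and pandas 2.3.3. The matching was checked on simulated data with planted summits. Sequences came from the RefSeq release 6 genome. Members, gene lists and motifs were chosen with earlier results of these data known. Named are the P450 genes with an IDR peak, those with the nearest IDR summit outside 500 bp or the strongest pooled peak outside the IDR list, the ecdysone and mitochondrial genes, a short list of well-studied genes, and the genes nearest to their summits. Other genes named, such as Cyp6w1 and the members of arrays, were chosen after their values were seen. Alternatives changed the list, replicate, window, TSS choice and assignment. No statistical test was used.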

Additional observations from a re-analysis of the deposited data

How the results depend on the processing

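With the stronger 50% of the IDR list (2287 peaks), 4 P450 genes kept a peak, of which 0 were Cyp4, 3 Cyp6 and 0 mitochondrial. With all pooled peaks the counts were 51 P450, 15 Cyp4, 17 Cyp6, 6 mitochondrial and 1 ecdysone synthesis gene. With all peaks of replicate 1 they were 49, 13, 19, 6 and 2, and with all peaks of replicate 3 they were 47, 14, 14, 5 and 2, in the same order. These lists hold more, weaker peaks by construction. Leaving out each replicate in turn, with as many of the strongest peaks of the other as the IDR list has, gave 8 to 11 P450, 0 to 1 Cyp4, 4 to 7 Cyp6 and 0 to 1 mitochondrial genes, and 0 ecdysone synthesis genes both times. Without replicate 3, Cyp12a4 and Cyp6d5 were lost and Cyp9f2 gained. Without replicate 1, Cyp309a1 and Cyp4d20 were lost and Cyp311a1, Cyp6d4, Cyp6w1 and Cyp9f2 gained. With a window of 250 bp, and with peaks that contain a TSS, the Cyp4 count was 0 and the P450 count 8 (9.64%). The shares of all protein-coding genes were then 17.4% and 14.4%. With 1000 bp the P450 count was 13 (15.7%, beside 24.6%). With 1 TSS per gene or only the nearest TSS it was 8 (9.64%), beside 19% and 16%. It stayed at 9 with the ecdysone synthesis genes added and with the 2 cyclophilins kept, which was tried only once the data had been seen. The share of summits nearest to a P450 TSS was 90% in the IDR list and 92.3% in the pooled list. The P450 share stayed below that of all protein-coding genes with both windows, the stronger 50% and the strongest peaks of each replicate alone. It was also below with 1 TSS per gene, only the nearest TSS, and peaks that contain a TSS. In percentage points the gap was smaller than as reported in all of these settings but 1. The exception was the strongest peaks of replicate 1 alone (9.64%, beside 21.7%), where it was larger. The P450 share was above that of all genes with all pooled, replicate 1 or replicate 3 peaks.

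No paired analysis was possible because there is 1 group. With 2 replicates on unscaled lists the spread is poorly known, the signal carries no counting error, and whole males hide which tissue a peak came from. Counts of 0 to 1 in a class say little about that class.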

Other observations

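The cyclophilin genes that match the symbol pattern were left out above. Cyp1 had a pooled signal of 62.1 within 500 bp of a TSS, with 36.3 in replicate 1 and 29.2 in replicate 3. Cyp40 had a peak of 11.5 in replicate 1 alone. Neither had an IDR peak.

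Repeated sequence was limited among the P450 genes. Apart from Cyp12d1-p and Cyp12d1-d, the highest shares of repeated stretches of 50 bases around a TSS were 25.3% at Cyp6a14 and 21% at Cyp6a8, both of which had a pooled peak. Cyp9f2 and Cyp9f3 shared 5.46% and Cyp6a17 and Cyp6a23 2.21%.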
